A study of Mus musculus with 9 samples.

Results

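The genes that build sterols and fatty acids under the control of sterol regulatory element-binding proteins (SREBP) were examined in alveolar macrophages of the mouse, which live in the air spaces of the lung, with and without the von Hippel-Lindau gene Vhl. The set was a list of 31 genes named by their place in the pathway, and all 31 were among the 12003 genes of the deposited table. They fall into 8 genes of the mevalonate and isoprenoid steps, 11 of the steps from squalene to cholesterol, 8 regulators of SREBP or of sterol transport, and 4 enzymes of acetyl-CoA supply and fatty acid synthesis. Each library was made from poly(A) RNA of macrophages washed from the airways of 5 to 7 untreated C57BL/6 mice, 8 to 12 weeks old and matched for sex, pooled and then enriched with beads for the integrin CD11c. The 3 genotypes had 3 pools each. Floxed controls, Vhl(flox/flox) / CD11c (+/+), carried Vhl alleles flanked by loxP sites and no Cre recombinase. Cre controls, Vhl(+/+) / CD11c (cre/+), carried Cre with intact Vhl. Knockouts, Vhl(flox/flox) / CD11c (cre/+), carried both. Cre was driven by the CD11c promoter, which is active in alveolar macrophages and also in dendritic cells.

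Cholesterol is made from acetyl-CoA through mevalonate, farnesyl diphosphate, squalene and lanosterol, and its isoprenoid intermediates also feed ubiquinone, dolichol and protein prenylation. SREBPs are transcription factors held in the membrane of the endoplasmic reticulum. When sterol is low, the escort protein SCAP carries them to the Golgi, where site-1 and site-2 proteases release the part that enters the nucleus, and when sterol is high, INSIG proteins hold SCAP back. SREBP2 acts mainly on sterol genes and SREBP1 mainly on fatty acid genes. Alveolar macrophages clear surfactant, a lipid film rich in phospholipid and cholesterol, and so handle much sterol from outside the cell. VHL is the part of a ubiquitin ligase that recognizes hydroxylated hypoxia-inducible factors (HIF), which are then degraded while oxygen is present.

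In knockout macrophages the sterol pathway was lower nearly throughout, while 1 enzyme at the head of fatty acid synthesis, Acly, was higher. Against both controls together, 22 of the 31 genes fell and 4 rose. Over all genes of the table, 39.8% were called in this comparison, 20.2% lower and 19.7% higher. Calls are by limma, a linear model fitted across all genes, at a Benjamini-Hochberg adjusted p under 0.05. The median log2 fold change of the 31 genes was -0.53, and that of all genes was -0.0022. All 3 knockout libraries lay below all 6 controls for 20 of the 31 genes and above them for 4, and the shares for all genes were 18.5% and 19.3%. Values are normalized reads, that is, reads per gene scaled to library size without correction for gene length, so levels are compared between libraries and not between genes. Log2 fold changes are differences on the scale of log2(normalized reads + 1). RNA of a bulk sample does not tell fewer cells of a type from less RNA per cell.

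The libraries held 18201116 to 25861174 reads. Vhl was at 18.1 ± 3.05 normalized reads in floxed controls (SD, n = 3), 23.7 ± 1.69 in Cre controls (n = 3) and 2.23 ± 0.261 in knockouts (n = 3), which is 10.6% of the mean of both controls (limma log2 fold change -2.75, adjusted p = 6.06e-08). All 12 alveolar macrophage markers examined, among them Siglecf, Itgax, Marco, Pparg and Chil3, were present in every library. Their summed level was 27063 to 31152 normalized reads in floxed controls, 26241 to 30213 in Cre controls and 35537 to 47687 in knockouts, and by gene 4 rose, 4 fell and 4 were not called. Chil3, set apart after its values were seen, made up most of the sum, and the other 11 markers summed to 9059 to 10816 in floxed controls, 10580 to 12744 in Cre controls and 9631 to 10996 in knockouts. Markers of T cells and NK cells and of B cells were not analysed here.

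Before the values, the DNA just upstream of several members is shown, because these genes are known as targets of 1 family of factors and most of them changed in the same direction. RefSeq (GRCm38.p6) start sites were matched by symbol for 27 of the 31 genes (all but Fdps, Fdft1, Sqle and Stard4), and the 250 bases upstream of each start were searched on both strands for a sterol regulatory element of the form TCACNCCAC, for the CCAAT box that binds NF-Y, a known partner of SREBP, and for the E-box CACGTG, to which SREBP1 and other basic helix-loop-helix factors bind. Shown are Idi1, Cyp51 and Insig1, which fell steeply within their groups, Srebf1, the regulator that rose most, and, chosen after their values were seen, Hmgcs1, the member with a sterol regulatory element match, and Acly, the member that rose most of all. Each window runs 5′ to 3′ on the strand of the gene, and capitals mark the matches, ATTGG being the CCAAT box read on the other strand. The Acly window holds none of these matches. Idi1 is at chr13:8885356-8885605 (plus strand), Cyp51 at chr5:4104698-4104947 (minus strand), Insig1 at chr5:28071162-28071411 (plus strand), Srebf1 at chr11:60222582-60222831 (minus strand) (the most upstream of 3 starts), Hmgcs1 at chr13:119690101-119690350 (plus strand) and Acly at chr11:100528001-100528250 (minus strand).
Idi1: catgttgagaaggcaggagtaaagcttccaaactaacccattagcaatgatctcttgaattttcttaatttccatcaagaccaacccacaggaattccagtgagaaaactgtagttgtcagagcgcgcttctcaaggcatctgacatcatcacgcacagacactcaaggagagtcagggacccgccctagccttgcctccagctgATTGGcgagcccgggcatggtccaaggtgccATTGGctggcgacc
Cyp51: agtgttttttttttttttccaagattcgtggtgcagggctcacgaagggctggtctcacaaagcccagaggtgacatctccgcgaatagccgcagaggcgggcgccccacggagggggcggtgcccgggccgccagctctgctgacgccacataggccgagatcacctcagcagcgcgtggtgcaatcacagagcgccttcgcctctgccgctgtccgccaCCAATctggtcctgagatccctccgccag
Insig1: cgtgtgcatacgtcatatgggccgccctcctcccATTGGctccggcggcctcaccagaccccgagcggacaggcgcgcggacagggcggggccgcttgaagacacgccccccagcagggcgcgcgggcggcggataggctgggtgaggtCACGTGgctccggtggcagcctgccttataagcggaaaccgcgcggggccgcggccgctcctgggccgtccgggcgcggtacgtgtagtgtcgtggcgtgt
Srebf1: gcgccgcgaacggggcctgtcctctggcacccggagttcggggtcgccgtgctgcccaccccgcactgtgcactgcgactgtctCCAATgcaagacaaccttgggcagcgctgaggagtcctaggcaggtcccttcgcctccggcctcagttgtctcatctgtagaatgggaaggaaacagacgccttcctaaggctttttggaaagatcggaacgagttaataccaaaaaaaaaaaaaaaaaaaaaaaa
Hmgcs1: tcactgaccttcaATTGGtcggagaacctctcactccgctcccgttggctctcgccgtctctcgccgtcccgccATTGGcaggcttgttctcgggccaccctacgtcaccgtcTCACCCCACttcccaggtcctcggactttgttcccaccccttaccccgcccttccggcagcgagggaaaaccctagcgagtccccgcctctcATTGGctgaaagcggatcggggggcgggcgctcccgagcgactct
Acly: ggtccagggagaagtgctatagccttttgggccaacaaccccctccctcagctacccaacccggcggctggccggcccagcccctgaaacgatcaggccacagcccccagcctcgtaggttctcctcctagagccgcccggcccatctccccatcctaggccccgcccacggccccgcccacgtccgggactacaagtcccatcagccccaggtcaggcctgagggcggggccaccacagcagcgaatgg

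A CCAAT box was found upstream of 21 of the 27 genes (77.8%), against 41.0% of the 9241 measured genes with an entry. Counted by window, since some genes have several starts, 22 of 35 windows of the members held it (62.9%), against 33.8% of all 32851 windows. These windows include genes not measured here, so this background is not the one used by gene. By gene, the share over all 27025 genes with an entry was 37.5%, lower than over measured genes. Of the 18 members with an entry that fell, 15 held a CCAAT box, and of the 4 that rose, 2 did (Srebf1 and Insig2). Of the members with an entry that were not called, Ggps1, Tm7sf2, Ebp and Acss2 held it and Mbtps2 did not. The box was thus also common among members that were not called. The form TCACNCCAC was found upstream of 1 member, Hmgcs1, and of 1.17% of measured genes. Other forms of the element were not searched, so a window without this match is not shown to lack one. An E-box was present upstream of 5 of the 27 genes (Dhcr7, Hsd17b7, Insig1, Sc5d and Scap), against 10.1% of measured genes. The core of the hypoxia response element, ACGTG, which also lies within CACGTG, was found upstream of 6 members (22.2%), the same 5 and Acly, against 25.4% of measured genes. These are matches of letters in 1 window, not measured binding sites.

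The first group holds the enzymes that turn acetyl-CoA into farnesyl and geranylgeranyl diphosphate. Of its 8 genes, 7 fell and none had a positive log2 fold change (median -0.69). Hmgcs1, which makes the precursor of mevalonate and carries the 1 sterol regulatory element match above (137 bases upstream of its start), was at 212, 168 and 166 normalized reads in floxed controls 1 to 3, 143, 209 and 185 in Cre controls 1 to 3, and 102, 89.3 and 88.7 in knockouts 1 to 3. The knockout mean was 51.7% of the control mean (limma log2 fold change -0.93, SE 0.121, adjusted p = 0.000211). All knockout values were below the lowest control, Cre control 1. Idi1, the isomerase that makes the allylic building block of isoprenoids, was at 124, 91.3 and 79.8 normalized reads in floxed controls 1 to 3, 72.9, 113 and 101 in Cre controls 1 to 3, and 45.6, 38.2 and 36.1 in knockouts 1 to 3. Its knockout mean was 41.3% of the control mean (limma log2 fold change -1.24, SE 0.161, adjusted p = 0.000211), the lowest share in this group, and its groups did not overlap. Fdps, which builds farnesyl diphosphate, was at 106, 89.99 and 75.2 normalized reads in floxed controls 1 to 3, 62.6, 93.9 and 83.3 in Cre controls 1 to 3, and 54.2, 36.2 and 33.99 in knockouts 1 to 3. Knockout 1 was the highest knockout library for Fdps, still under the lowest control, and the mean was 48.7% of controls (limma log2 fold change -1.03, SE 0.173, adjusted p = 0.00103).

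The other mevalonate enzymes fell less. Mvd, the decarboxylase of the last mevalonate step, went from 78.3 ± 13.02 to 46.4 ± 5.45 normalized reads (mean ± SD, controls n = 6, knockouts n = 3). Acat2, the thiolase that joins the first acetyl units, went from 24.7 ± 4.16 to 15.2 ± 1.75. The 2 kinases that phosphorylate mevalonate, Mvk and Pmvk, had knockout means of 73.8% and 73.1% of controls. The gene of this group that was not called was Ggps1, which makes the geranylgeranyl diphosphate used in protein prenylation, a side branch of the route to cholesterol. Ggps1 was at 17.2 ± 0.808 normalized reads in controls and 15.9 ± 0.923 in knockouts, with a log2 fold change of -0.11 (95% interval -0.26 to 0.046, limma adjusted p = 0.247), and its groups overlapped.

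**Figure D1:**
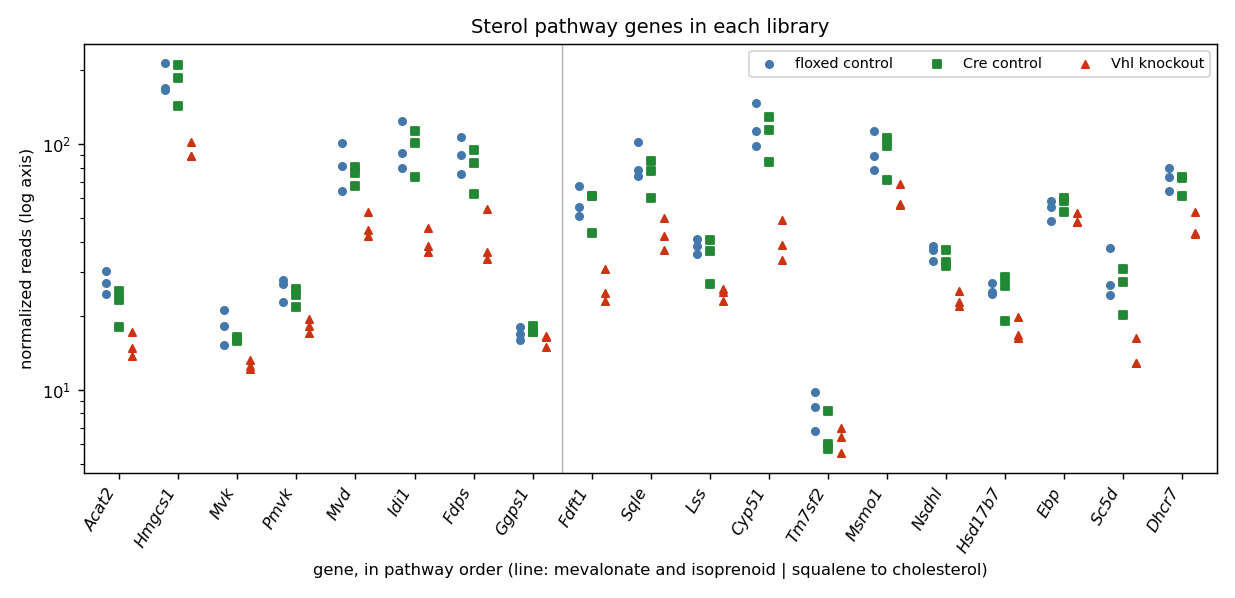
Normalized reads (log axis) of the 19 sterol pathway genes in each of the 9 libraries, ordered along the pathway, with 3 points per genotype. The knockout points lie under all control points for 15 of the 19 genes and overlap them for Ggps1, Tm7sf2, Hsd17b7 and Ebp.

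From squalene to cholesterol, 9 of 11 genes fell, and again none had a positive log2 fold change (median -0.59). Fdft1, squalene synthase, commits farnesyl diphosphate to sterols and was at 67.3, 55.3 and 50.7 normalized reads in floxed controls 1 to 3, 43.3, 61.4 and 61.2 in Cre controls 1 to 3, and 31.02, 24.7 and 22.9 in knockouts 1 to 3. Its knockout mean was 46.3% of controls (limma log2 fold change -1.08, SE 0.139, adjusted p = 0.000204), with no overlap between the groups. Cyp51, the lanosterol demethylase, was at 146, 113 and 97.4 normalized reads in floxed controls 1 to 3, 84.0, 128 and 114 in Cre controls 1 to 3, and 49.1, 38.7 and 33.5 in knockouts 1 to 3. The knockouts lay well under every control, and the mean had the lowest share of all 31 genes, 35.6% of controls (limma log2 fold change -1.46, SE 0.166, adjusted p = 8.99e-05). Nsdhl, which removes methyl groups from the sterol ring after Cyp51, was at 36.9, 38.3 and 33.4 normalized reads in floxed controls 1 to 3, 31.9, 37.1 and 32.95 in Cre controls 1 to 3, and 25.2, 21.95 and 22.8 in knockouts 1 to 3. Its control libraries varied little, and the mean fell to 66.5% of controls (limma log2 fold change -0.57, SE 0.0743, adjusted p = 0.000223).

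Exons of Fdft1 share bases with those of Ctsb, and exons of Cyp51 with those of Akap9, and how the reads of the shared bases were assigned is not known here. Among the remaining genes of this stretch, Sqle, the epoxidase that adds oxygen to squalene, went from 79.3 ± 13.5 to 42.9 ± 6.44 normalized reads, and Sc5d, a late desaturase of the sterol ring, from 27.8 ± 6.05 to 13.96 ± 1.99. Lss, which closes the ring to lanosterol, had a knockout mean of 66.9% of controls. Msmo1, the sterol methyl oxidase, was at 65.5%, and Dhcr7, which reduces the last precursor to cholesterol, at 65.5%. Hsd17b7, a sterol ketoreductase, fell to 69.8% (limma adjusted p = 0.00904), but knockout 1 at 19.6 normalized reads lay above Cre control 1 at 19.03. The genes not called were Tm7sf2 and Ebp. Tm7sf2, a sterol reductase that shares its reaction with Lbr, was at 7.50 ± 1.58 normalized reads in controls and 6.30 ± 0.725 in knockouts (log2 fold change -0.20, 95% interval -0.51 to 0.11, limma adjusted p = 0.275). Ebp, a sterol isomerase, was at 55.6 ± 4.38 normalized reads in controls and 49.5 ± 2.58 in knockouts (log2 fold change -0.16, 95% interval -0.32 to -0.0032, limma adjusted p = 0.0981). Without floxed control 3, Ebp was called lower (log2 fold change -0.20, limma adjusted p = 0.0280), and so it was without a scaling factor (-0.21, limma adjusted p = 0.0176).

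The size of the fall was uneven along the pathway. Across the 19 sterol genes the knockout mean ran from 35.6% to 92.5% of the control mean, with a median of 65.5%, and 4 genes (Idi1, Fdps, Fdft1 and Cyp51) were under 50%. By library, the median of the 19 genes lay 0.49, 0.70 and 0.69 below the control mean on the log2 scale in knockouts 1, 2 and 3. Knockout 1 was the highest of the knockouts for 17 of the 19. Controls were spread as well. Floxed control 1 was the highest control for 14 of the 19 genes, with a median of 0.26 above the control mean, and Cre control 1 was the lowest for 15, with a median of 0.35 below it. With Cre control 1 left out, 22 of the 31 genes were still called lower and 4 higher against both controls.

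**Figure D2:**
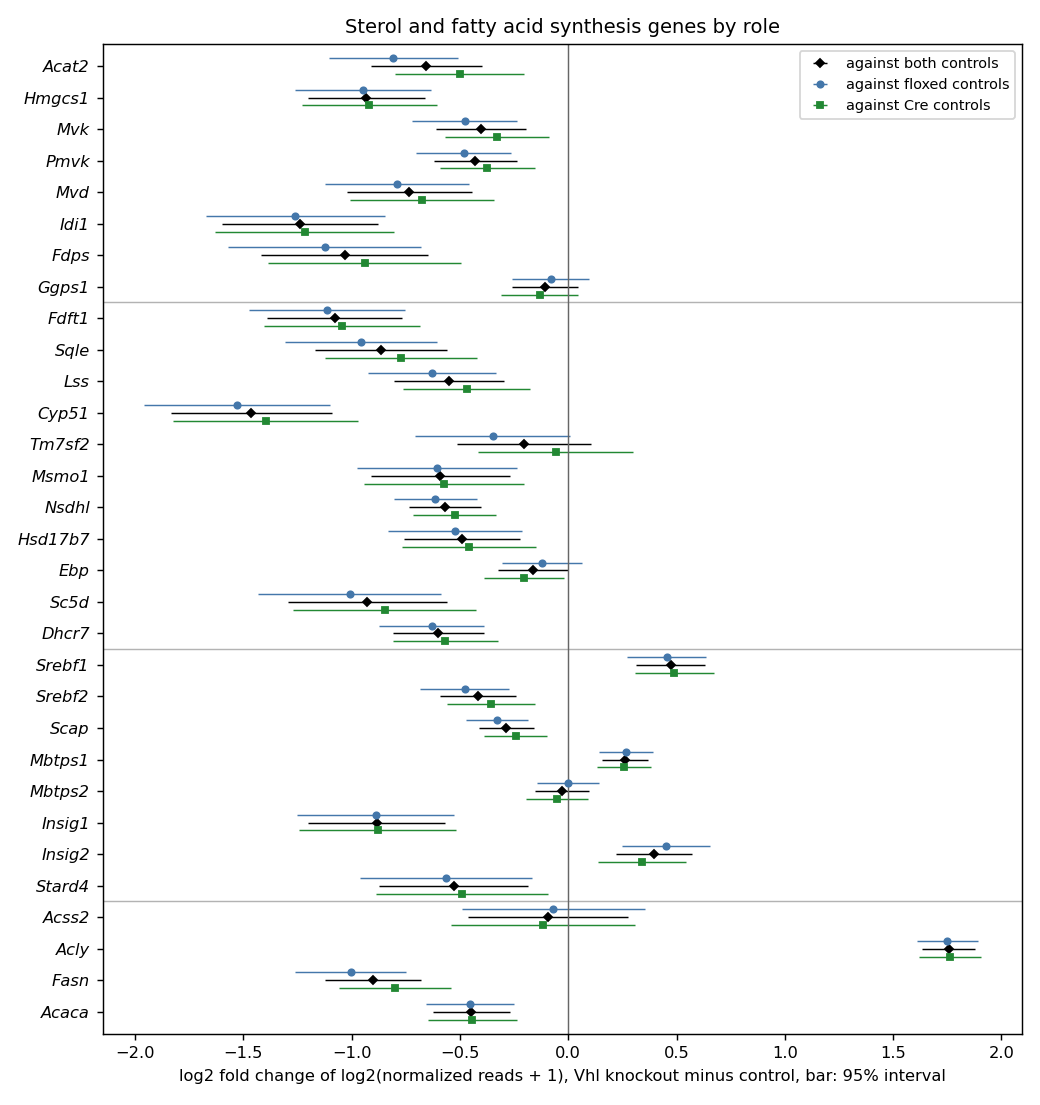
Log2 fold change of each of the 31 genes in the knockout against both controls, floxed controls and Cre controls, with 95% intervals, in 4 blocks from top to bottom (mevalonate and isoprenoid, squalene to cholesterol, regulators, acetyl-CoA and fatty acid). Acly stands at 1.76 against both controls and Cyp51 at -1.46, and Srebf1, Mbtps1 and Insig2 are the other genes to the right of 0.

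The regulators went both ways. Of the 8 genes, 4 fell (Srebf2, Scap, Insig1 and Stard4), 3 rose (Srebf1, Mbtps1 and Insig2) and Mbtps2 was not called. Their median log2 fold change was -0.16. The genes for the SREBPs themselves parted. Srebf1, which encodes SREBP1, was at 139.8, 152 and 154 normalized reads in floxed controls 1 to 3, 163, 128 and 146 in Cre controls 1 to 3, and 206, 204 and 201 in knockouts 1 to 3. Every knockout value exceeded every control (limma log2 fold change 0.47, SE 0.0708, adjusted p = 0.000530). SREBP1a and SREBP1c, transcripts of this gene that start at different promoters, share 1 row of the table and were not told apart. Srebf2, which encodes SREBP2 and is itself a sterol-regulated gene, went from 205 ± 19.3 to 153 ± 10.1 normalized reads (limma log2 fold change -0.42, SE 0.0792, adjusted p = 0.00222).

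The INSIG genes also parted. Insig1, whose transcription is known to be driven by SREBP and whose upstream window above holds a CCAAT box and an E-box, was at 113, 86.6 and 84.6 normalized reads in floxed controls 1 to 3, 73.6, 112 and 98.4 in Cre controls 1 to 3, and 58.6, 46.5 and 46.3 in knockouts 1 to 3. Its groups did not overlap, and the knockout mean was 53.4% of controls (limma log2 fold change -0.89, SE 0.141, adjusted p = 0.000771). Insig2, the other ER anchor of SCAP, was at 20.7, 18.2 and 17.6 normalized reads in floxed controls 1 to 3, 21.3, 21.7 and 18.3 in Cre controls 1 to 3, and 24.8, 27.1 and 26.4 in knockouts 1 to 3. All knockouts exceeded all controls for Insig2 and the mean was 133% of controls (limma log2 fold change 0.40, SE 0.0791, adjusted p = 0.00298). The protease genes differed by small amounts. Mbtps1, the site-1 protease, was at 88.4, 95.6 and 88.2 normalized reads in floxed controls 1 to 3, 90.3, 88.8 and 94.8 in Cre controls 1 to 3, and 112, 109 and 107 in knockouts 1 to 3. It rose by a small amount with no overlap (limma log2 fold change 0.26, SE 0.04804, adjusted p = 0.00183). Mbtps2, the site-2 protease, was at 44.6 ± 2.26 normalized reads in controls and 43.7 ± 0.509 in knockouts (log2 fold change -0.027, 95% interval -0.15 to 0.098, limma adjusted p = 0.736). Scap, the escort itself, fell to 81.8% of controls.

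Stard4 encodes a soluble protein that carries cholesterol between membranes and is a known SREBP2 target. It was at 62.7, 49.96 and 49.8 normalized reads in floxed controls 1 to 3, 40.3, 66.9 and 49.3 in Cre controls 1 to 3, and 43.2, 32.8 and 32.9 in knockouts 1 to 3. Knockout 1 lay above Cre control 1, so the groups overlapped. Stard4 was called lower against both controls (limma log2 fold change -0.53, SE 0.154, adjusted p = 0.0206) and against floxed controls (-0.57, limma adjusted p = 0.0331). Against Cre controls it was not called (log2 fold change -0.49, limma adjusted p = 0.0570). The call against both controls was lost without knockout 2 (limma adjusted p = 0.0895) and without knockout 3 (limma adjusted p = 0.0900). The call against floxed controls was lost without floxed control 1, floxed control 2, knockout 2 or knockout 3 (limma adjusted p = 0.0934, 0.0531, 0.108 and 0.109) and without the intensity trend (limma adjusted p = 0.0506). Against Cre controls it was called without Cre control 1, knockout 1 or floxed control 1 (limma adjusted p = 0.0155, 0.0355 and 0.0458). In that comparison it was also called without a scaling factor (limma adjusted p = 0.0445) and by DESeq2 (adjusted p = 0.0185).

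**Figure D3:**
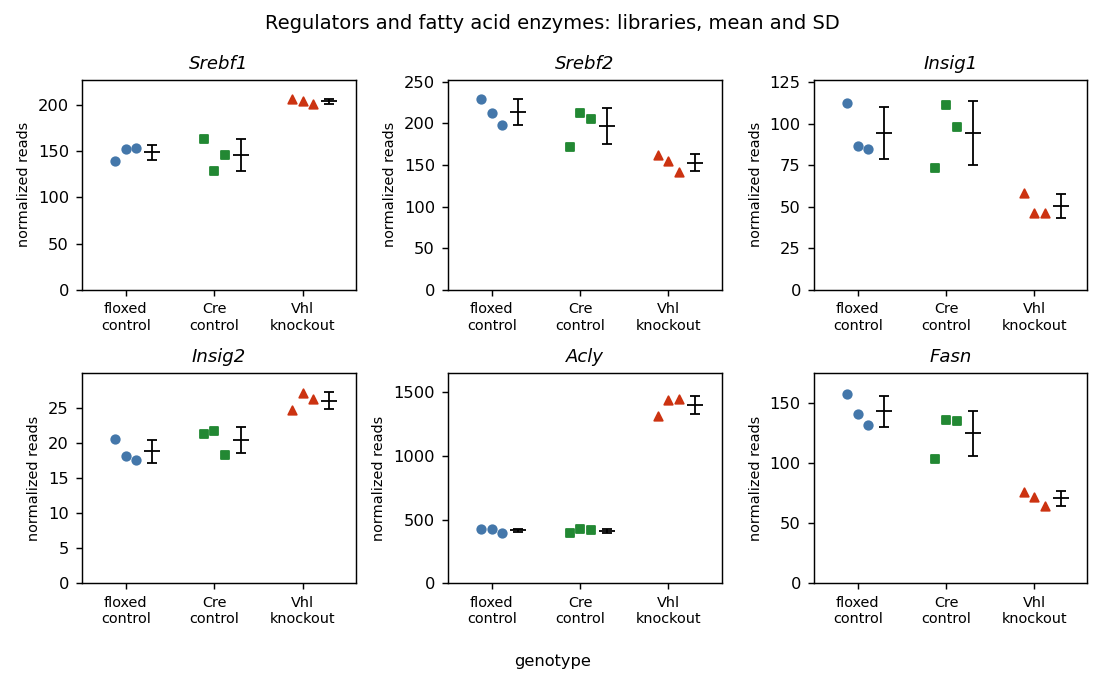
Normalized reads of Srebf1, Srebf2, Insig1, Insig2, Acly and Fasn in each library (points, 3 per genotype), with the mean and SD of each genotype beside them and axes from 0. Srebf1, Insig2 and Acly are higher in all 3 knockouts than in all 6 controls, and Srebf2, Insig1 and Fasn lower.

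The enzymes of acetyl-CoA supply and fatty acid synthesis went both ways, with 2 lower, 1 higher and 1 not called. Acly, the ATP-citrate lyase that splits citrate into cytosolic acetyl-CoA for both sterol and fatty acid synthesis, was at 423, 424 and 399 normalized reads in floxed controls 1 to 3, 396, 424 and 417 in Cre controls 1 to 3, and 1317, 1441 and 1445 in knockouts 1 to 3. The 6 controls lay close together, and the knockout mean was 3.39 times theirs (limma log2 fold change 1.76, SE 0.0552, adjusted p = 1.22e-08), the largest change among the 31 genes. Acss2, which makes cytosolic acetyl-CoA from acetate instead, was at 8.21 ± 1.83 normalized reads in controls and 7.49 ± 0.215 in knockouts and was not called (log2 fold change -0.094, 95% interval -0.46 to 0.27, limma adjusted p = 0.688). The enzymes that use acetyl-CoA for fatty acids fell. Acaca, acetyl-CoA carboxylase 1, which makes malonyl-CoA, was at 73.4, 81.2 and 79.2 normalized reads in floxed controls 1 to 3, 72.6, 85.6 and 74.2 in Cre controls 1 to 3, and 49.98, 61.2 and 59.3 in knockouts 1 to 3. Its groups did not overlap (limma log2 fold change -0.45, SE 0.0791, adjusted p = 0.00143). Fasn, fatty acid synthase, was at 157, 141 and 131 normalized reads in floxed controls 1 to 3, 103, 136 and 135 in Cre controls 1 to 3, and 76.1, 72.1 and 64.02 in knockouts 1 to 3. Every knockout lay under every control for Fasn, and the knockout mean was 52.9% of controls (limma log2 fold change -0.90, SE 0.0998, adjusted p = 7.46e-05).

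Each control was also used alone. Against floxed controls, which share the floxed alleles with the knockout, 22 of the 31 genes fell and 4 rose, where 34.3% of all genes were called, 16.8% lower and 17.5% higher. Against Cre controls, which share the transgene, 21 fell and 4 rose, where 34.0% of all genes were called, 17.7% lower and 16.3% higher. Both comparisons use the same knockout libraries. Acly had log2 fold changes of 1.75 and 1.76, Cyp51 of -1.53 and -1.40, Fasn of -1.005 and -0.80, and Acat2 of -0.81 and -0.50 against floxed and Cre controls. The count of 21 depended on which library was left out. It was 13 without Cre control 3, 13 without knockout 3, 15 without Cre control 2 and 17 without knockout 2, and 21 without Cre control 1 or without knockout 1.

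Cre controls were then set against floxed controls, to see whether a knockout difference depends on the control used. These genotypes differ both in the transgene and in the floxed Vhl alleles, and the parts of the transgene and the alleles cannot be told apart. Limma called 0 of the 31 genes, where 0.167% of all genes were called (0.1% lower and 0.0667% higher), and 1 of the 31, Acat2, had an unadjusted p under 0.05. EdgeR and DESeq2 on the recovered reads also called 0. The log2 fold changes of the 31 genes ran from -0.31 (Acat2) to 0.11 (Insig2), with a median of -0.07, and 25 were negative. The lack of a call does not show that the controls were alike.

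Genes next to the pathway were read from lists of related genes. Of 20 measured SREBP targets and sterol steps outside the 31, 13 fell and 5 rose against both controls (median log2 fold change -0.39), with the background shares of 20.2% and 19.7% given above. Lpin1, 1 of the 5 (limma adjusted p = 0.0446), was not called against floxed or Cre controls alone (limma adjusted p = 0.0686 and 0.101). In several alternatives its call against both controls was lost, at limma adjusted p of 0.0521 (replicate block) to 0.163 (without knockout 2). Tmem97, Mid1ip1 and Pcyt2, among the 13, lost their calls without knockout 3 (limma adjusted p = 0.0505, 0.0743 and 0.0918). Pcyt2 also lost its call without knockout 2 (limma adjusted p = 0.0612) and was not called against Cre controls alone (limma adjusted p = 0.0841). Lbr, a nuclear envelope protein that is also a sterol reductase, went from 19.2 ± 6.76 to 7.71 ± 1.79 normalized reads (limma log2 fold change -1.18, adjusted p = 0.000762), with log2 fold changes of -1.46 against floxed and -0.89 against Cre controls.

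Genes of fatty acid processing in the same list split. Acsl3, which activates fatty acids to acyl-CoA, rose from 7.02 ± 1.68 to 29.4 ± 3.91 normalized reads (limma log2 fold change 1.94, adjusted p = 4.14e-06). Scd1, the desaturase that makes oleate, rose from 31.7 ± 4.18 to 105 ± 16.3 (limma log2 fold change 1.69, adjusted p = 4.87e-07). Slc25a1, which exports the citrate that Acly uses from mitochondria and is named after its values were seen, rose from 76.7 ± 3.103 to 108 ± 1.58 (limma log2 fold change 0.49, adjusted p = 2.04e-05). In the other direction, the polyunsaturated fatty acid desaturases Fads1 and Fads2 had log2 fold changes of -2.87 and -1.25 (limma adjusted p = 3.21e-06 and 0.000616). Fads1 was at 23.7 ± 5.27 normalized reads in controls and 2.39 ± 0.912 in knockouts, and Fads2, at low levels where the added 1 shrinks a fold, at 2.49 ± 1.55 normalized reads in controls and 0.355 ± 0.184 in knockouts. The controls of Fads2 differed in level, at 3.72 ± 1.10 in floxed and 1.25 ± 0.499 in Cre controls (n = 3 each, limma unadjusted p = 0.000748, adjusted p = 0.207), and its log2 fold change was -1.79 against floxed and -0.72 against Cre controls. Me1, the malic enzyme that supplies NADPH, went from 6.87 ± 3.31 to 2.25 ± 0.392 normalized reads (limma log2 fold change -1.18, adjusted p = 0.00300), with log2 fold changes of -0.83 against floxed and -1.53 against Cre controls. The well expressed genes Cyb5r3, a reductase that passes electrons to desaturases, and Rdh11, a retinol dehydrogenase, were not called, with log2 fold changes of 0.053 and 0.015.

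**Figure D4:**
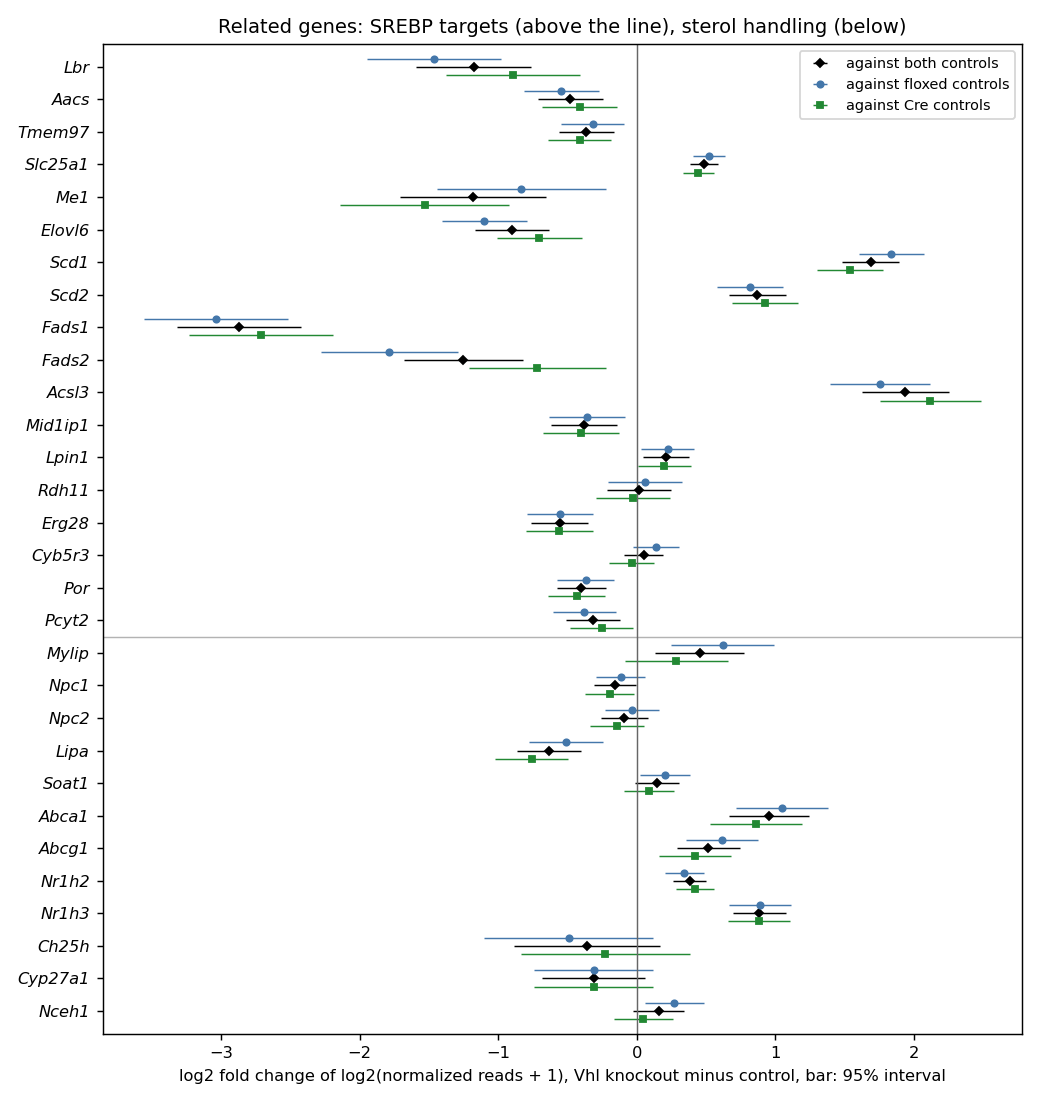
Log2 fold change of related genes in the knockout against both controls and each control, with 95% intervals, for 18 of the 20 SREBP targets and sterol steps above the line and 12 of the 13 genes of sterol uptake, storage and export below it. Fads1 lies at -2.87, Acsl3 at 1.94 and Abca1 at 0.96 against both controls.

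Of 13 measured genes of sterol uptake, storage and export, 5 rose, 1 fell and 7 were not called (median log2 fold change 0.15). The called share, 46.2%, was near the 39.8% of all genes. Against Cre controls 4 rose and 1 fell. Mylip, 1 of the 5, lost its call without floxed control 2, knockout 2 or knockout 3 and without a scaling factor (limma adjusted p = 0.0607, 0.144, 0.0899 and 0.0628). Genes of the liver X receptor, a nuclear receptor for oxysterols, and of its targets are named after their values were seen. Nr1h3, the receptor gene LXR-alpha, rose from 54.6 ± 5.295 to 102 ± 7.18 normalized reads (limma log2 fold change 0.89, adjusted p = 3e-05). Abca1, a cholesterol exporter, rose from 151 ± 17.7 to 296 ± 60.5 (limma log2 fold change 0.96, adjusted p = 0.000267). The gene that fell was Lipa, the lysosomal acid lipase that frees cholesterol from its esters, also named after its values were seen, which went from 1483 ± 217 to 949 ± 85.5 (limma log2 fold change -0.63, adjusted p = 0.000883). Npc1, which moves cholesterol out of lysosomes, was not called (limma log2 fold change -0.15, adjusted p = 0.102), but was called lower without floxed control 1 (adjusted p = 0.0453), without a scaling factor (adjusted p = 0.0431) and with the replicate number as a block (adjusted p = 0.0481).

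In the branches that use isoprenoids for ubiquinone, dolichol and prenylated proteins, 3 of 12 genes rose and 1 fell, with a median log2 fold change of 0.02, and the called share of 33.3% was under the 39.8% of all genes. The gene that fell, Dhdds, was at the threshold (limma adjusted p = 0.0499, and 0.0502 to 0.208 in the 11 alternatives that lost it). Of those that rose, Pdss2 (limma adjusted p = 0.0360) lost its call in 9 alternatives. Chm and Icmt, which serve protein prenylation, were not called, at log2 fold changes of -0.043 and -0.0034. Of 12 genes that act in the sterol-regulated degradation of pathway enzymes, 2 rose and 3 fell, a called share of 41.7%. The steepest of these was Rnf145, a ubiquitin ligase of the endoplasmic reticulum named after its values were seen, which went from 31.9 ± 2.53 to 62.96 ± 1.103 normalized reads (limma log2 fold change 0.96, adjusted p = 4.78e-06). Sel1l, part of the degradation machinery, was not called, at a log2 fold change of 0.029.

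Other programs moved in the same libraries. All 12 proliferation genes examined fell, with a median log2 fold change of -1.01, and their summed level was 936 to 1162 normalized reads in floxed controls, 715 to 1072 in Cre controls and 488 to 539 in knockouts. Cre control 1, the lowest control for 15 of the 19 sterol genes, was also the lowest for 10 of the 12 proliferation genes. Floxed control 1, the highest control for 14 sterol genes, was the highest for 0 proliferation genes. Among the knockouts 17 of the 19 sterol genes were highest in knockout 1, while its proliferation median, at -0.99, differed little from -0.96 and -0.98 in knockouts 2 and 3. The part of proliferation in the sterol result was not tested.

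**Figure D5:**
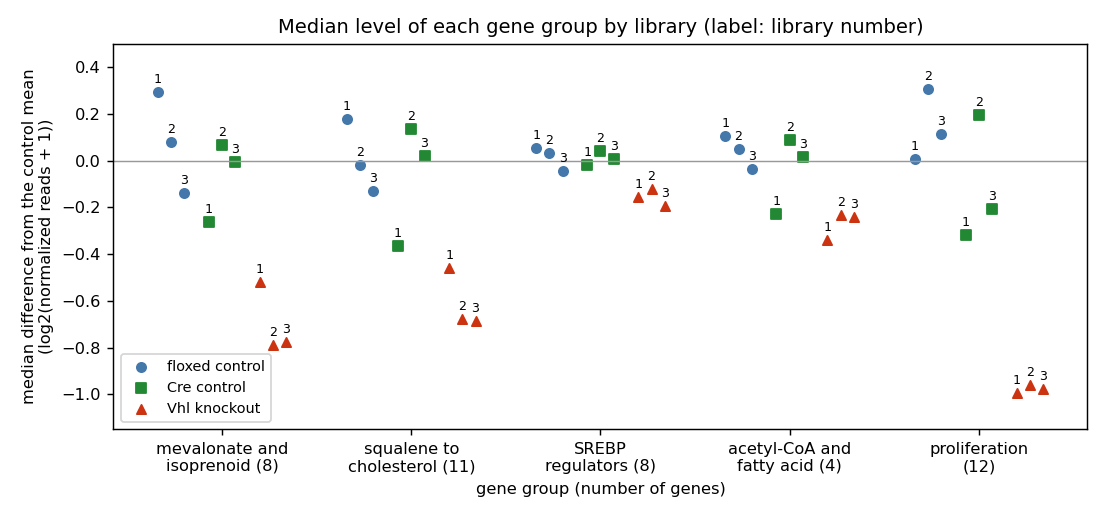
Median difference from the control mean, in log2(normalized reads + 1), for each gene group in each library, with the library number beside each point. In both sterol groups the 3 knockouts lie under all controls and Cre control 1 is the lowest control, and in the proliferation group the knockouts lie at -0.99 to -0.96.

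Markers of other CD11c-bearing or lipid-making cells were read the same way. Against both controls all 8 dendritic cell markers fell, and against Cre controls alone 6 fell and 2 were not called. Their summed level was 59.9 to 128 normalized reads in floxed controls, 75.2 to 169.7 in Cre controls and 16.2 to 16.8 in knockouts, with no marker at 0. Alveolar type II cells of the epithelium make surfactant lipid and are rich in these enzymes. Sftpc, their surfactant protein C, ranged from 0.205 to 3.11 normalized reads over the 9 libraries and was not called (limma adjusted p = 0.630). The 6 measured epithelial markers of 9 listed, of which Epcam and Sftpa1 fell and Etv5 rose, summed to 223 to 369.9 in floxed controls, 285 to 365 in Cre controls and 227 to 248 in knockouts, with no marker at 0. The 3 measured neutrophil markers of 4 listed, of which 1 rose, summed to 87.1 to 386 in floxed controls, 48.4 to 183 in Cre controls and 107 to 277 in knockouts. Monocyte markers (3 of 3 measured, of which Ccr2 rose against both controls and Ly6c2 was at 0 in Cre control 2) summed to 27.1 to 50.2, 21.4 to 27.6 and 40.4 to 46.2 in the same order of genotypes. Against floxed controls alone, 0 of the 3 neutrophil and 0 of the 3 monocyte markers were called, and 2 of the 3 monocyte log2 fold changes were negative. Red cell markers (3 of 3, none called by limma or at an unadjusted p under 0.05) summed to 12.03 to 80.7, 13.8 to 53.3 and 0.306 to 32.3. The part of these cells in the sterol result was not tested.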

How the data were processed

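RNA was measured in 9 libraries (3 genotypes, 3 pools each), sequenced as single reads of 61 bases per the labels' protocols. GRCm38 is the genome build per the submitters' processing notes, which list RSEM 1.2.3, cutadapt 1.3 and CASAVA 1.8.2. The sources used here do not give the annotation, the strand setting or later steps. Values in the deposited table are signal values, that is, counts scaled by 1 factor per library without correction for gene length, here called normalized reads. All values (100%) were whole reads within 0.01 read after division by what 1 read is worth (0.0400 to 0.0565 normalized reads), and its library factors match edgeR's TMM factors when these are computed anew on the recovered reads. Such scaling cannot show a shift shared by all genes. Each gene has at least 0.962 in at least 3 libraries, and all 31 members passed this filter. All 9 value columns were used and 0 set aside. Libraries of 1 genotype were not duplicates within counting noise.

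Exon positions come from GENCODE M21 (GRCm38), and 11935 of the genes have a symbol. Because the values are scaled, limma 3.58.1 (R 4.3.3) on log2(value + 1) was used in place of a count test, with 1 mean per genotype, an intensity trend, two-sided tests and Benjamini-Hochberg adjustment over all 12003 genes. The script was tested on simulated data. Alternatives were a pseudocount of 0.25, genes with a mean of at least 1, no scaling factor, edgeR 4.0.16 and DESeq2 1.42.0 on the recovered reads, only the groups compared, the replicate number as a block, no trend, and each library left out. P-values measure the spread between pools.

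The members and gene lists were chosen with earlier results of these data known. Per-library values are given for the 3 members with the smallest adjusted p in each role, for members that rose, and for members called against only 1 of the controls. From each related list, genes called at a fold of at least 2 are named, with up to 2 well expressed genes that did not pass. Outside this rule, Mylip, Lpin1, Tmem97, Mid1ip1, Pcyt2, Dhdds and Pdss2 are named because alternatives changed their calls. Any other gene outside it is said to be named after its values were seen. Promoters were to be shown for the 2 lowest fold changes in each sterol group and for the highest and lowest regulator, where a start was matched. Exons of 7 members share bases with another measured gene (Ggps1, Fdft1, Cyp51, Tm7sf2, Srebf1, Mbtps2 and Acss2). For Tm7sf2 (with Vps51) and Mbtps2 (with Yy2) the other gene is on the same strand, where a strand setting would not separate the reads. For the rest it is on the opposite strand, and such reads cannot be told apart without a stated strand setting. How reads were divided between Acat2 and its close relative Acat3 is not given either. Values of a few related genes are not reported here, though the counts over their lists include them.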

Additional observations from a re-analysis of the deposited data

How the results depend on the processing

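Against both controls, 21 to 23 of the 31 genes were called lower and 4 higher with each library left out in turn, and 22 to 23 lower and 4 higher under the other alternatives. Against floxed controls the counts were 19 to 22 lower and 4 higher without 1 library, and 21 to 22 lower and 4 higher otherwise. Against Cre controls they were 13 to 22 lower and 3 to 4 higher without 1 library, the lowest without Cre control 3 (13) and without knockout 3 (13), and 21 to 23 lower and 4 higher otherwise. No member changed direction with a call. The genes that lost a call under some alternative were Acat2, Hsd17b7, Insig2, Lss, Msmo1, Mvk, Pmvk, Scap and Srebf2 against Cre controls, and Hsd17b7, Msmo1 and Stard4 against floxed controls. Against both controls, related genes kept within 14 to 21 called lower and 12 to 16 higher. Without a scaling factor, the calls over all genes against floxed controls were 1635 higher and 2540 lower, in place of 2099 and 2013, and the members stood at 22 lower and 4 higher. Library numbers were not taken to pair the libraries, since only 6 of the 9 same-numbered pairs had a correlation of deviations over 0.1 (range -0.0934 to 0.524). The 3 pairs of number 1 were all over it (0.202 to 0.524), and 3 of 9 libraries correlated best with their own number. Library 1 also had the highest summed neutrophil markers of its genotype (386 normalized reads in floxed controls, 183 in Cre controls and 277 in knockouts). The same held for red cell markers (80.7, 53.3 and 32.3 in the same order), and whether a batch lies behind this was not tested. With the replicate number as a block, 22 members were called lower and 4 higher against both controls, and no member changed its call in that comparison, while between the control genotypes the calls over all genes went from 20 to 71, with 0 of them members.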

Other observations

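Ratios of paired genes within a library do not depend on its scaling, and the pairs here were chosen after their values were seen. Insig1 and Insig2 encode the ER anchors of SCAP. There were 3.46 to 5.45 Insig1 reads per Insig2 read in the 6 controls, with a median of 4.97, and 2.37, 1.71 and 1.76 in knockouts 1, 2 and 3. Srebf1 and Srebf2 encode the SREBPs. Srebf1 reads per Srebf2 read were 0.603 to 0.949 in controls, with a median of 0.714, and 1.27, 1.32 and 1.42 in knockouts 1, 2 and 3. In each of these ratios the control nearest to the knockouts was Cre control 1. For Acly, which supplies acetyl-CoA, and Fasn, which uses it, the controls held 2.69 to 3.84 Acly reads per Fasn read and the knockouts 17.3, 19.99 and 22.6. These ratios compare a gene pair between libraries, and since the genes differ in length they do not say which transcript of a pair is the more abundant.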
